A study of Mus musculus with 14 samples.

Results

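The 7 genes described here write, copy and remove the methyl mark on cytosine in mouse DNA: Dnmt1, Uhrf1, Dnmt3a, Dnmt3b, Tet1, Tet2 and Tet3. Described are the open chromatin peaks to which the deposited peak list gives 1 of these 7 symbols as gene name, that is, the gene with the nearest transcription start site (TSS). This rule found 58 of 92842 peaks. All 7 genes had at least 2 peaks, and 19105 genes were named in the list.

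Open chromatin was mapped by ATAC-seq, in which the transposase Tn5 inserts sequencing adapters into accessible DNA. The cells were multipotent progenitors (MPP), common myeloid progenitors (CMP), common lymphoid progenitors (CLP), granulocyte-macrophage progenitors (GMP), megakaryocyte-erythroid progenitors (MEP) and the early B and T lineage cells labelled ProB and ProT. ProT cells came from thymus and the other cell types from bone marrow of adult wild-type C57BL/6 mice aged 8 to 12 weeks, all sorted by surface antibodies, with 2 libraries for each of the 7 cell types and no treatment. The list pools all 14 libraries and holds no value for a library or a cell type, so it cannot be told in which cells a given peak was open. The depth is unknown, and the values below are compared between genes, without replicates and without p-values.

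Methyl groups sit mostly on the cytosine of CpG dinucleotides. After replication, UHRF1 binds the half-methylated sites and recruits DNMT1, which copies the mark to the new strand, whereas DNMT3A and DNMT3B methylate sites anew. The TET enzymes oxidise methylcytosine, which opens the way to its removal. DNMT3A and TET2 are well known in blood because both are often mutated in clonal haematopoiesis and myeloid leukaemia in humans, and loss of either in mouse haematopoietic stem cells favours self-renewal.

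Peaks were spread very unevenly over the 7 genes. Tet2 had 23 peaks, Dnmt3a 14 and Tet1 10, whereas Dnmt1, Uhrf1 and Dnmt3b had 3 each and Tet3 had 2. Tet2 and Dnmt3a together held 37 of the 58 peaks, or 63.8%. The 7 genes averaged 8.29 ± 7.91 peaks (SD over 7 genes), against 4.86 ± 5.33 over all 19105 genes of the list, and the median was 3.0 in both. As many peaks as at Tet2 were found at 1.76% of all genes, as many as at Dnmt3a at 6.44%, and as many as at Tet3 at 76.5%. Of the 7 genes, 3 had 10 or more peaks, against 12.6% of all genes. Thus the high mean rested on Tet2, Dnmt3a and Tet1, and the other 4 genes lay at or below the common count.

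**Figure D1:**
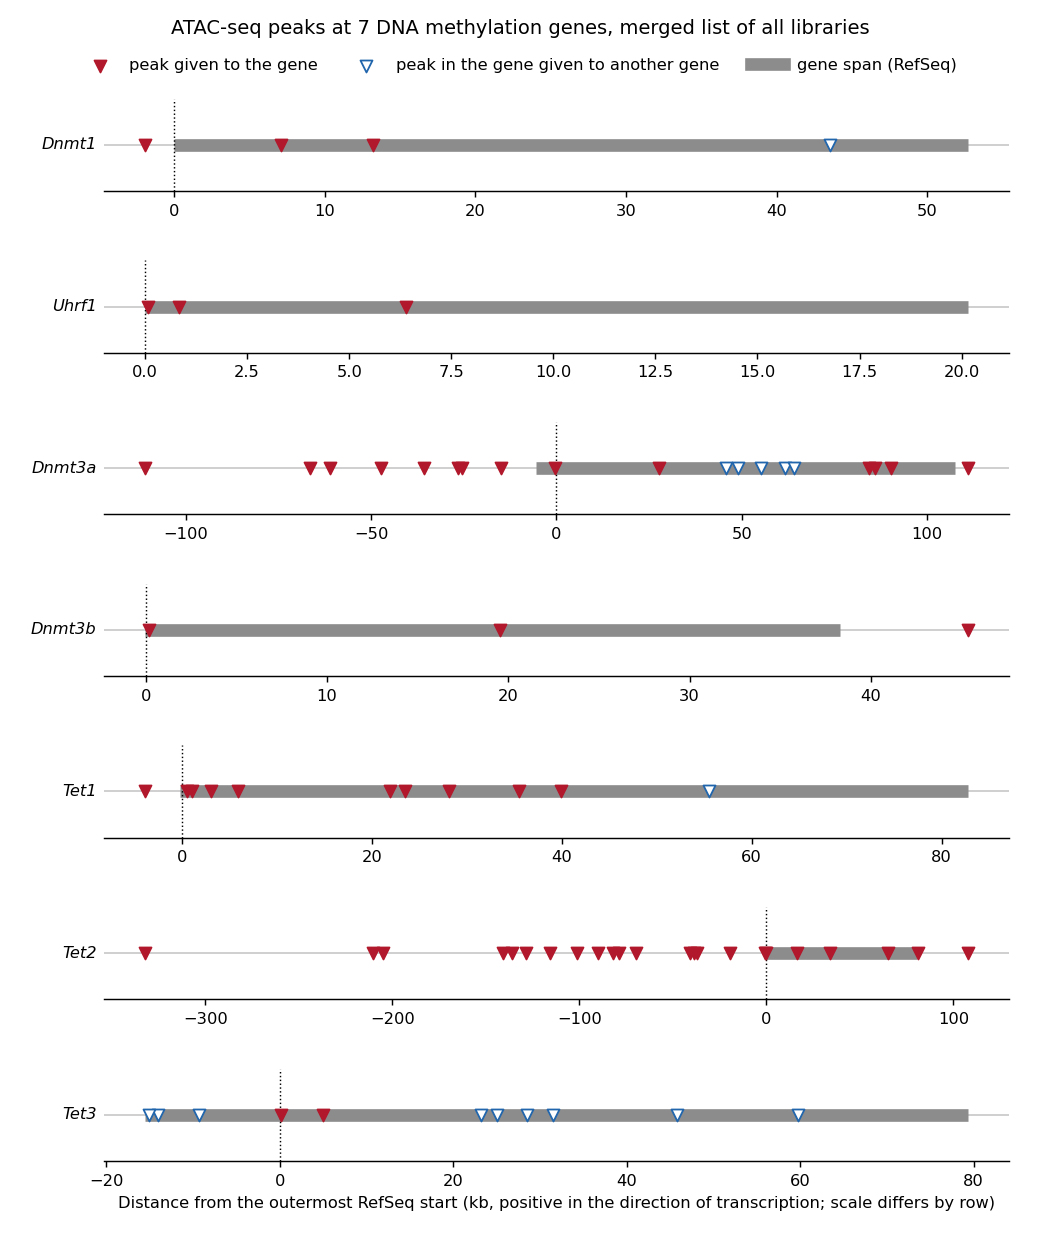
Position of each peak along the 7 genes, in kb from the outermost start with a RefSeq promoter and positive in the direction of transcription. Filled triangles are peaks given to the gene by the list, and open triangles are peaks inside the gene that the list gives to another gene. Grey bars are the RefSeq gene spans, which at Tet3 and Dnmt3a begin well upstream of that start. The scale differs between rows. Tet2 has a long upstream series of 18 peaks, whereas 9 of the 11 peaks inside Tet3 are given to other genes.

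The position of the member peaks relative to the TSS differed between the genes, and the pooled values were set by Tet2 and Dnmt3a. Of the 58, 35 (60.3%) were upstream and 23 downstream of the nearest TSS, against 42.3% upstream over all peaks, and the median distance was 26.4 kb, against 18.2 kb over all peaks. Of the 35 upstream peaks, 18 were those of Tet2 and 10 those of Dnmt3a. Without Tet2, 48.6% of 35 peaks were upstream and the median distance was 11.2 kb, below that of all peaks. Without Tet2 and Dnmt3a, 7 of 21 peaks (33.3%) were upstream, also below the share over all peaks. Within 1 kb of a TSS lay 9 of the 58 (15.5%, exact Clopper-Pearson 95% interval 7.35 to 27.4%, counting error only), against 16.2% of all peaks. Without Tet2 this share was 20.0% and without Tet1 18.8%, so it lay on either side of the share over all peaks depending on the genes counted. By annotation class, 26 member peaks (44.8%) were intergenic, against 39.3% of all peaks. Of these 26, 17 were those of Tet2, so this share too was set mainly by 1 gene. Another 5 were those of Tet1, most of which lay within its RefSeq span, as given below. A further 21 (36.2%) were intronic, against 42.0%, and 8 (13.8%) were classed as promoter, against 11.6%. A pair (3.45%) lay at transcript ends, against 1.61%, and 1 in the 5′ UTR of Dnmt3b (1.72%, against 1.3%), while none was classed as another exon, 3′ UTR or non-coding. Only 3 member peaks (5.17%) lay in an annotated repeat, against 16.0% of all peaks. All 3 lay in short interspersed elements, which held 4.14% of all peaks, a share near that of the members. They were ID_B1 in a Dnmt1 intron, PB1D9 in a Tet1 intron and B1_Mur2 in a Tet2 intron.

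Dnmt1, the maintenance methyltransferase, lies on the minus strand at chr9:20907206-20959888 (mm10; gene ends from RefSeq on GRCm38.p6, which has the same chromosomes as mm10). The list measured its 3 peaks from 3 different starts. The peak classed as promoter, chr9:20952558-20953056, covered the starts at 20952979 and 20952623, which are 356 bp apart. The third start, at 20959888, lies 6.91 kb further upstream and had no peak within 1 kb; the nearest, chr9:20961570-20962068, was 1.93 kb before it. The oocyte form of Dnmt1 is known to begin at a first exon upstream of the somatic one. The list names a different RefSeq transcript for each of the 3 starts, but which of them is the oocyte form was not determined here. The remaining peak, chr9:20946421-20946919, lay in the first intron, 5.95 kb from its TSS. A further peak in intron 27, chr9:20916115-20916613, was given to the microRNA gene Mir7081.

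The 2 Dnmt1 promoters under the single peak are printed because both hold the binding core of NRF1, GCGCATGCG, inside the open region. All promoter sequences below are RefSeq's (GRCm38.p6), run 5′ to 3′ on the gene's own strand from 250 bases before the start to 50 after it, and carry in capitals every match, on either strand, to the 12 motifs spelled out further below, except where said otherwise. The palindrome in each holds the NRF1 core on both strands. The copies lie at chr9:20952600-20952609 and chr9:20952941-20952950.
Dnmt1, chr9:20952574-20952873, minus strand: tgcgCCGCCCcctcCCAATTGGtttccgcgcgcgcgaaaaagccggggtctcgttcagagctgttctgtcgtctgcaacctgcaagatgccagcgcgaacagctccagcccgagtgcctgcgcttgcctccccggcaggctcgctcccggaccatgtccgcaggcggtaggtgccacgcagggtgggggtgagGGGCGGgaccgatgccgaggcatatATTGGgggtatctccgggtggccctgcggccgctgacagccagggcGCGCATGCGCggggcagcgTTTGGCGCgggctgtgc
Dnmt1, chr9:20952930-20953229, minus strand: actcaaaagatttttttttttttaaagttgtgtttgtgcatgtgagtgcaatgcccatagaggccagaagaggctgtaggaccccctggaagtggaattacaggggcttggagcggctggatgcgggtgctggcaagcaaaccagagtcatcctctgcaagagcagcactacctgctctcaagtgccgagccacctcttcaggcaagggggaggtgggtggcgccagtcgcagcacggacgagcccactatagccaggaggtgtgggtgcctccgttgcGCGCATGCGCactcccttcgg
The first of these promoters lay wholly in the peak and held 33 CpG, whereas the second had 127 of its 300 bases in the peak and held 12 CpG. The first also held the E2F core TTTGGCGC, which began at base 34 of the transcript. The promoter of the start without a peak held 2 CpG, and 88.6% of all coding promoters held as many.

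Uhrf1, whose product recognises half-methylated CpG, lies on the plus strand at chr17:56303337-56323486. Both of its starts, 976 bp apart, had a peak. The peak chr17:56303153-56303651 was centred 65 bp after the first start, and the peak chr17:56303925-56304423 was centred at -139 bp from the second, where negative distances are upstream. The third peak, chr17:56309470-56309968, lay in intron 3, 5.41 kb from its TSS. No peak inside Uhrf1 was given to another gene. The second promoter is shown because it lay wholly in a peak and combined 3 GC boxes (GGGCGG) with 2 CCAAT boxes.
Uhrf1, chr17:56304063-56304362, plus strand: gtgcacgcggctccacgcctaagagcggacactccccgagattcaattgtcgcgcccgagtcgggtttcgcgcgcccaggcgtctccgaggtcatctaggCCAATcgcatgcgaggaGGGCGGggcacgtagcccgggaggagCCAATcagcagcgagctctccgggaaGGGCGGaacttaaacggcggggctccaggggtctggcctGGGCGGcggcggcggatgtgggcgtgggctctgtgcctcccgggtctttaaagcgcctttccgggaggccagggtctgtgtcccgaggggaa
This promoter held 33 CpG, the same number as the Dnmt1 promoter above, and 11.3% of coding promoters held as many. The promoter of the first start held 12 CpG and had 234 of its 300 bases in a peak.

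Dnmt3a, a de novo methyltransferase, lies on the plus strand at chr12:3801559-3914443, and its 14 peaks fell into 3 stretches. Upstream, 8 peaks lay outside the gene at 15.0, 25.4, 26.5, 35.8, 47.4, 61.3, 66.7 and 111 kb from its first start. Of these, 7 lay within the neighbouring gene Dtnb, which encodes beta-dystrobrevin of the dystrophin-associated complex, 6 of them in its introns and 1 at its end. At the first start, 1 peak (chr12:3806327-3806825) was centred 404 bp upstream, and another lay in the first intron, 27.5 kb after the next start. The RefSeq span begins further upstream, at 3801559. The peak of Dnmt3a nearest to that outer end was the one at the first start, centred 5017 bp inside the gene. The third stretch surrounded a start inside the gene, at 3891744, which lies 84.6 kb after the second of its starts, at 3807160. A shorter isoform, DNMT3A2, is known to be made from an internal promoter of the gene. A peak there (chr12:3891043-3891541) was centred at -452 bp, and others lay 1.1, 5.53 and 26.2 kb after it, the last of them beyond the gene's end. Both of the peaks closest to that start also overlap the long non-coding RNA gene Gm31623.

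The middle of Dnmt3a was not empty. Between the stretches lay 5 peaks that the list gives to the antisense-named non-coding gene Dnmt3aos, all of them inside Dnmt3a. They were spread from chr12:3852469-3852967 to chr12:3870915-3871413, and 1 was centred 174 bp from the Dnmt3aos start. Counted by position, Dnmt3a held 10 peaks, or 8.86 per 100 kb, and 32.6% of coding genes were as dense. The promoter of its first start is shown for its composition: 82.3% GC, 46 CpG and 6 GC boxes, with 96 of 300 bases in the peak.
Dnmt3a, chr12:3806730-3807029, plus strand: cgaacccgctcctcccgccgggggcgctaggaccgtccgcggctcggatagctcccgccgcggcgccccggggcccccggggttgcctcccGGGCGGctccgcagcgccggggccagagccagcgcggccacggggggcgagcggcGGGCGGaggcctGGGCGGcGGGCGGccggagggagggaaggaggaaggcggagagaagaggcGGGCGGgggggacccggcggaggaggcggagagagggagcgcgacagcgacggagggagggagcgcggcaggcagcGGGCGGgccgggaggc
The overlapping promoter of the next start, 180 bp downstream, held 47 CpG. Only 2.1% and 1.83% of coding promoters held as many as these. The promoter of the internal start held 18 CpG, which 40.3% reached, and was the only member promoter with the E-box CACGTG.

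Dnmt3b, the other de novo methyltransferase, lies on the plus strand at chr2:153649411-153687730 and had only 3 peaks, all downstream of its TSS. The peak chr2:153649401-153649899 was centred 201 bp after the start, in the 5′ UTR. The others were centred 19.6 kb after it, in intron 7, and 45.3 kb after it, beyond the gene's end. With 2 peaks inside its span, Dnmt3b had the lowest density of the 7 genes, 5.22 per 100 kb, which 47.1% of coding genes reached. Its promoter held 30 CpG and 4 GC boxes. By nearest TSS, the contrast with Dnmt3a was one of number and reach, 3 peaks against 14, while both had a peak within 1 kb of the first start. Inside the genes the counts were 2 against 10. The contrast depended on the way of counting, since Dnmt3b had 10 peaks within 50 kb of the start, against 9 at Dnmt3a. Between 10 and 150 kb upstream it had 22, against 10.

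Tet1, an oxygenase that also binds CpG-rich DNA through its CXXC domain, lies on the minus strand at chr10:62804570-62887469. The list measured its 10 peaks from a TSS at 62880014 and left none within 1 kb; the nearest was centred at -1378 bp. The RefSeq table places the start at 62887324, which is 7.31 kb further upstream. Measured from there, the peak chr10:62886506-62887004 was centred 569 bp after the start, and 4 of the 5 peaks that the list calls upstream and intergenic lay within the gene. A single peak, chr10:62890939-62891437, remained upstream, at 3.86 kb. The other 5 peaks were intronic, between 21.9 and 40.0 kb after the RefSeq start. For the other 11 member starts in the list, the list and the RefSeq table gave the same base, as they did for 84.0% of the peaks whose gene has a start in that table. A further peak inside Tet1, in an RLTR11A2 long terminal repeat, was given to the neighbour Ccar1.

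The Tet1 promoter is printed at the RefSeq start, because the list's annotation does not show it. None of its 300 bases lay in a peak, since the nearest peak began 320 bp after the start.
Tet1, chr10:62887275-62887574, minus strand: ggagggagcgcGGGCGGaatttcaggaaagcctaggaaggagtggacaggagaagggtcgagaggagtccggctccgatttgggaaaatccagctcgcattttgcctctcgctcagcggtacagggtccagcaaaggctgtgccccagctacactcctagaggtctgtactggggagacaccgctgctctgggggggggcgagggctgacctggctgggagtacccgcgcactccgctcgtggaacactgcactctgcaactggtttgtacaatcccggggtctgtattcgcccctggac
It held 17 CpG, fewer than the promoters of Tet2 and Tet3, and 1 GC box.

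Tet2, the oxygenase gene most often mutated in human blood disease among the TET family, lies on the minus strand at chr3:133463677-133545136. It had the most peaks of the 7 genes, and 18 of its 23 were upstream. At the start, the peak chr3:133544189-133544687 was centred 48 bp upstream and the peak chr3:133544746-133545244 was centred at -605 bp. The next lay 19.3 kb upstream, followed by a group of 3 at 37.3, 38.8 and 40.8 kb. Beyond these came peaks at 70.0, 79.1, 82.3, 90.0, 101, 116, 128, 136 and 141 kb, a pair at 205 and 211 kb, and the last at 332 kb. In all, 16 peaks lay more than 10 kb upstream and 8 more than 100 kb. Downstream of the start, 3 peaks lay in introns 1, 2 and 6, 1 at the gene's end and 1 beyond it, at 108 kb. Only 5 of the 23 were inside the gene.

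The upstream peaks lay in a wide interval without coding genes. The next coding gene on that side, Cxxc4, whose protein IDAX is known to bind TET2 and lower its level, lay 691 kb away. The interval between the genes held 19 peaks, of which 16 were given to Tet2 and 3 to Cxxc4. That is 2.75 peaks per 100 kb, less than the 4.54 per 100 kb of the median coding gene body. The measures are unlike, since gene bodies include starts, and no density was computed for other intervals between genes. On the other side, Ppa2 was 85.4 kb away. Since a peak is given to the nearest TSS, the width of the interval enters the count of 23. Its part in that count was not tested, and windows of equal size are given below.

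The Tet2 promoter, which lay wholly in a peak, is shown because of a repeated word. In this sequence the capitals mark not the motifs but the 12-base word CCGCGAGGGAGC, which occurs 5 times, each copy 42 bases after the last.
Tet2, chr3:133544341-133544640, minus strand: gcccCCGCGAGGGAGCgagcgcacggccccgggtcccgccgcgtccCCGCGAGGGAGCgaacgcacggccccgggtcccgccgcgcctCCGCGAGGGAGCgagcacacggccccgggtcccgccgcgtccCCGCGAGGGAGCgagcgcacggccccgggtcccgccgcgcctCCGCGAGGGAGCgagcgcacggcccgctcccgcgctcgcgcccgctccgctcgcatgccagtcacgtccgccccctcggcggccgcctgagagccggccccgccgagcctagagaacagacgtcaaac
A word of 12 bases present 5 or more times was found in 19 of 21263 coding promoters (0.0894%), and in none of the other 11 member promoters. The window held 57 CpG, the most of the 12 member promoters, and 0.179% of coding promoters held as many. Its ratio of observed to expected CpG was 1.17. Reads in repeated sequence can be hard to place, and how the authors treated them is not given in the sources used here.

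Tet3, the third oxygenase, lies on the minus strand at chr6:83362373-83457208 and had the fewest peaks, 2. The peak chr6:83441334-83441832 was centred 95 bp after its start, and the other lay 4.95 kb after the start, in intron 2. Yet 11 peaks lay within the gene, or 11.6 per 100 kb, which 24.6% of coding genes reached. The list gave 6 of them to the microRNA gene Mir6374, which lies inside Tet3, and 3 to the non-coding gene B230319C09Rik. The RefSeq gene span reaches 15.5 kb further upstream than the listed start. Near this outer end the peak chr6:83456466-83456964 was centred 493 bp inside the gene and the peak chr6:83457344-83457842 just outside it. Both were given to B230319C09Rik. Whether Tet3 appears as the poorest or as 1 of the richest of the 7 genes thus depends on whether peaks are counted by nearest TSS or by position.

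**Figure D2:**
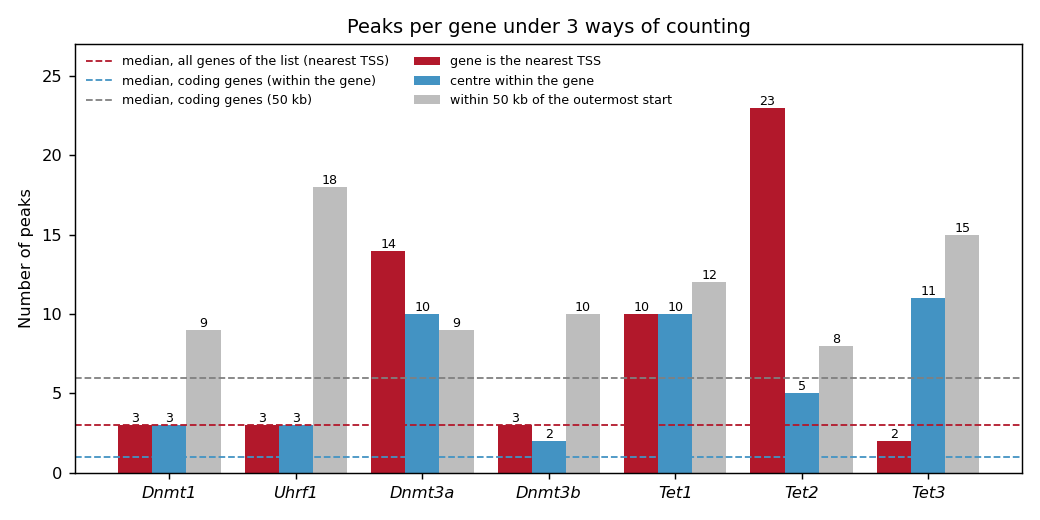
Number of peaks for each of the 7 genes under 3 ways of counting. These are gene is the nearest TSS (red), peak centre within the gene (blue) and peak centre within 50 kb of the outermost start with a RefSeq promoter (grey). Dashed lines are the medians over all genes of the list (3.0) and over coding genes (1.0 and 6.0). Tet2 leads by nearest TSS with 23, Tet3 by gene body with 11 and Uhrf1 by equal window with 18.

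Counting by position changed the order of the genes. Inside the 7 gene bodies lay 44 peaks, of which 16 (36.4%) were given to other genes, and 30 of the 58 member peaks (51.7%) lay outside the body of their own gene. The bodies held 11 peaks in Tet3, 10 each in Dnmt3a and Tet1, 5 in Tet2, 3 each in Dnmt1 and Uhrf1 and 2 in Dnmt3b, with a median of 5.0, against 1.0 over 21887 coding genes. Per 100 kb of body the order was Uhrf1 with 14.9, Tet1 12.1, Tet3 11.6, Dnmt3a 8.86, Tet2 6.14, Dnmt1 5.69 and Dnmt3b 5.22. The median density was 8.86 in the 7 genes, against 4.54 over coding genes. With counts this small, neighbours in that order cannot be told apart.

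In windows of equal size Tet2 no longer stood out. Within 50 kb of the outermost start with a RefSeq promoter lay 18 peaks at Uhrf1, 15 at Tet3, 12 at Tet1 and 10 at Dnmt3b. Dnmt1 and Dnmt3a had 9 each and Tet2 had 8. The median was 10.0, against 6.0 over 17492 coding genes. The RefSeq span begins upstream of this start, at -15.53 kb for Tet3 and at -5.421 kb for Dnmt3a. As many as at Uhrf1 were found at 2.98% of coding genes and as many as at Tet2 at 40.8%. All 8 peaks in the Tet2 window were given to Tet2. Of the 18 around Uhrf1, only 3 were given to it, and 5 each were given to Fem1a and Kdm4b, 3 to Plin3 and 2 to Ticam1. Between 10 and 150 kb upstream of the start, Tet2 had 13 peaks, as had Tet3, against a median of 8.0 over coding genes, and 26.7% of coding genes had as many. Dnmt3b had the most in that range, 22, which 4.04% reached, although none of them was given to Dnmt3b. The gap to the next coding gene on the near side was 85.4 kb at Tet2, 16.6 kb at Dnmt3b, 16.1 kb at Dnmt3a, 12.2 kb at Tet1, 6.06 kb at Dnmt1, 2.48 kb at Uhrf1 and 2.24 kb at Tet3. These gaps run to the nearer end of the neighbour, whereas peaks are given by nearest TSS, so they do not measure the room for each gene's peaks. At Dnmt3a, 7 of its 14 peaks lay within Dtnb, beyond its gap of 16.1 kb. The part of the gaps in the counts was not tested.

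Peaks close to a start were found at all 7 genes, although at Dnmt3a and Tet1 no peak covered a start itself. By the TSS of the list, 6 of the 7 genes had a peak centred within 1 kb, against 68.0% of all genes of the list, and the exception was Tet1. By RefSeq starts, all 7 had such a peak, against 61.7% of coding genes with a RefSeq start. Of their 12 RefSeq starts, 11 had a peak within 1 kb, against 60.4% of coding starts. The 300-base promoter overlapped a peak at 9 of the 12, against 53.7%, and lay wholly in peaks at 3, against 20.7%. The 3 were those of Dnmt1, Uhrf1 and Tet2 shown above. Since most genes have such a peak, a count of 6 or 7 out of 7 does not set these genes apart.

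**Figure D3:**
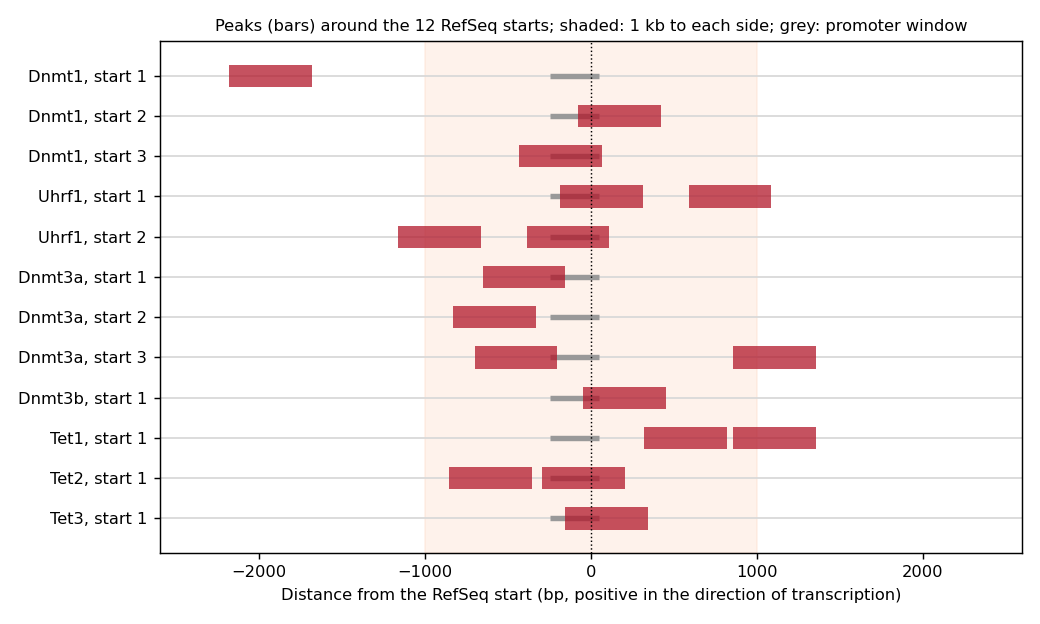
Peaks (red bars) around each of the 12 RefSeq starts of the 7 genes, in bp from the start and positive in the direction of transcription; starts are numbered along the direction of transcription, the shaded band is 1 kb to each side and the grey line is the 300-base promoter. At 11 of the 12 starts a peak is centred within 1 kb, and the outermost Dnmt1 start has none.

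The member promoters were rich in CpG. Their median was 26.0 CpG per 300 bases, against 13.0 over all 21263 coding promoters, 21.0 over those with a peak within 1 kb and 3.0 over those without. They ranged from 2 at the outermost Dnmt1 start, the only 1 without a peak, to 57 at Tet2. Dnmt3a, with 46 and 47, came next to Tet2, and Tet1 with 17 and Tet3 with 22 lay close to the median of promoters with a peak. CpG number and peaks moved together over all coding promoters, so the members were compared with the promoters that have a peak.

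**Figure D4:**
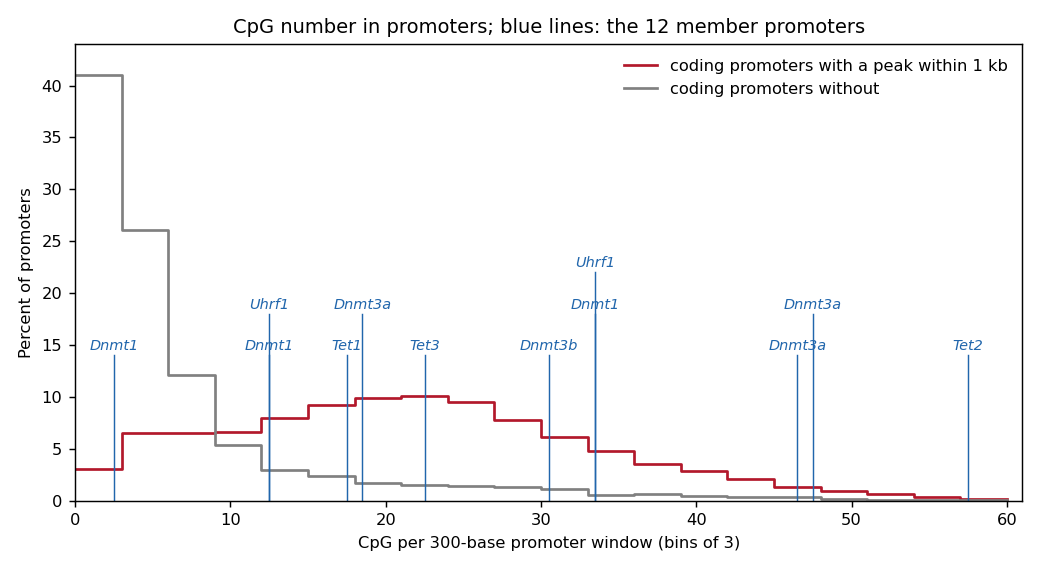
Distribution of CpG number per 300-base promoter, in bins of 3 CpG, as percent of coding promoters with a peak within 1 kb (red) and without (grey); each blue line is 1 of the 12 member promoters, and its height carries no value. Member promoters range from 2 CpG at 1 Dnmt1 start to 57 at Tet2.

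Of the 12 motifs searched on both strands, the GC box GGGCGG, which Sp-family factors bind, was in 10 of the 12 member promoters and in all 7 genes, against 46.2% of coding promoters. Among coding promoters with a peak, 64.3% held it. The CCAAT box (CCAAT) was in 5 promoters, namely 2 of the 3 of Dnmt1, both of Uhrf1 and that of Tet3, against 38.2% of coding promoters and 37.8% of those with a peak. The NRF1 core GCGCATGCG was in both Dnmt1 promoters under the peak and in no other, against 2.35% of coding promoters and 3.58% of those with a peak. The next pairs of shares are given in the same order. The E2F core TTTGGCGC was in 1 Dnmt1 promoter, against 0.635% and 0.911%, and the E-box CACGTG in 1 Dnmt3a promoter, against 7.84% and 10.2%. No member promoter held the ETS core CGGAAG, which 21.1% of coding promoters and 30.6% of those with a peak held, or the TATA box TATAAA, which 12.6% and 6.68% held. The other E2F form, TTTCCCGC, was in no member promoter, against 1.41% of coding promoters and 2.08% of those with a peak. The same was true of the cyclic AMP response element TGACGTCA, found in 2.23% and 3.15%, and of the YY1 motif AAGATGGCG, found in 1.83% and 2.9%. Both blood factor motifs were also missing from the member promoters: TGTGGTT, bound by RUNX factors, was in 4.71% of coding promoters and 3.64% of those with a peak. The motif AGATAA of the GATA factors was in 9.65% and 6.29%. With 12 promoters of 7 genes, the absence of a motif at the lower of these shares is no result about the members. The ETS core had the highest share of the absent motifs, 30.6% of coding promoters with a peak, and its absence was not tested. GC boxes may overlap each other, as they do in the second Dnmt3a promoter, and a match is a run of letters, not a shown binding site.

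The wider set of 51 genes of the same pathway gave a comparable picture. Of these, 47 had at least 1 peak, against 75.2% of coding genes. Of the 47, 38 had a peak within 1 kb of a listed TSS, against 68.0% of the genes of the list, all of which have a peak. The median was 3.0 peaks per gene, against 2.0 over all coding genes and 3.0 over coding genes with a peak. Among 36 that have a start in the RefSeq table, 35 had a peak within 1 kb of it, against 61.7% of coding genes with such a start, and the exception was Cxxc4, with its nearest peak at 3.53 kb.

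Of the partners of maintenance, 8 of 8 had a peak, against 75.2% of coding genes, with a median of 5.0 peaks. Cdca7l, a relative of the chromatin remodelling cofactor Cdca7, had 27, more than any of the 7 genes, and Usp7, a deubiquitinase that stabilises UHRF1 and DNMT1, had 12. A peak was also found at 5 of 5 partners of de novo methylation, with a median of 3.0, and lists this short cannot be set apart from the share over coding genes. The de novo list was led by the histone H3 lysine 36 methyltransferases Nsd2 with 7 and Nsd1 with 5. Among 8 readers of methylated CpG the median was 3.0, but Mbd2, which recruits the NuRD complex, had 27, followed by Zbtb38 with 6.

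The 11 genes of demethylation and repair had a median of 5.0, led by the stress-induced genes Gadd45g with 18 and Gadd45a with 17. Tdg, the glycosylase that excises the oxidised bases made by TET enzymes, was given none, although 2 peaks lay within the gene, both given to Gm9855, and the nearest was 52 bp from its start. Apex1, the endonuclease of the next step, was likewise given none, and a peak given to Osgep lay 192 bp from it. Of 8 cofactors and partners of TET, Cxxc5, a CXXC relative of Cxxc4, had 22 and Idh2, which makes the cosubstrate 2-oxoglutarate, had 6. Wt1, a zinc finger protein that recruits TET2, was given none and its nearest peak, given to Them7, was 11.6 kb away. Thus Tdg and Apex1 had a peak in or within 1 kb of the gene under another gene's name, and Wt1 did not. The 6 other CXXC proteins had a median of 3.5, led by Kdm2b with 13 and Kmt2a with 7. The 5 genes of the S-adenosylmethionine cycle, the source of the methyl group, had a median of 4.0, led by the methionine synthase gene Mtr with 6.

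**Figure D5:**
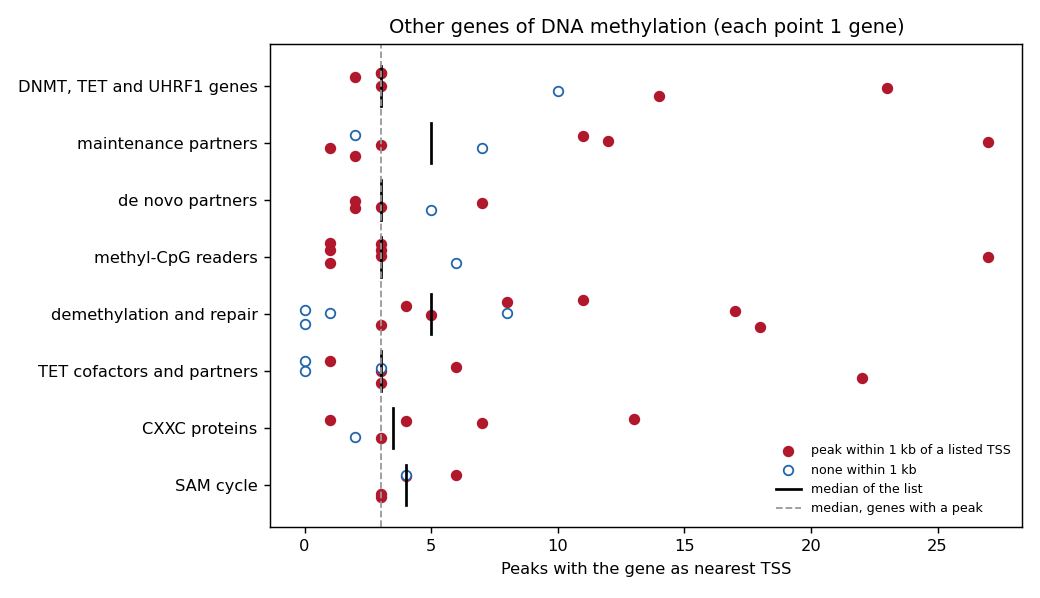
Peaks per gene (nearest TSS) for the 7 genes in the top row and 7 lists of other DNA methylation genes below. Each point is 1 gene, filled where a peak lies within 1 kb of a listed TSS. Black bars are list medians and the dashed line is the median over all genes of the list, 3.0. List medians lie between 3.0 and 5.0, and Tet2 with 23 is exceeded only by Cdca7l and Mbd2 with 27 each.

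Marker genes of the labelled cells were checked in the pooled list. All 18 marker genes of the 7 cell types had a peak, against 75.2% of coding genes, among them Kit with 20 and Il7r with 19. A peak within 1 kb of a listed TSS was found at 17, against 68.0% of the genes of the list, the exception being Elane. Of 5 markers of other cell types, 4 had a peak, against 75.2% of coding genes, and the natural killer cell gene Ncr1 had none. Only Col1a1, at 979 bp, had a peak within 1 kb. Cdh5 had 9 peaks, above the median of 5.0 of the 18 marker genes. Since the list is pooled, no cell type could be checked by itself, and no member peak can be placed in a cell type.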

How the data were processed

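ATAC-seq was measured in 14 libraries of 7 sorted cell types, 2 each; the labels do not say whether these came from different animals. The deposited file is 1 merged list of 92842 peaks of 499 bp. Per the file header the authors annotated it against mm10, and HOMER 4.10.2 is named per the submitters' processing notes. The aligner, peak caller, threshold and merging were not given in the sources used here. The peak score deposited by the authors is 0 throughout, so no use was made of it. The planned comparisons between cell types could not be made, since no value per library was analysed here.

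Member peaks were taken by gene name. Each TSS was recovered from the peak centre and the deposited signed distance. Gene spans, starts and promoter sequences came from RefSeq tables of GRCm38.p6. The members were matched to them by the Entrez gene identifier in the list. Among the other genes, Nsd2 was found as Whsc1 in the list. All 7 genes matched. A promoter peak is centred within 1 kb of a start. The CpG ratio is the observed number over that expected from the base composition. Percentages of coding genes or promoters are shares with as many or more. Counts were made with Python 3.11.15, pandas 2.3.3, numpy 2.4.6 and scipy 1.17.1 and tested on simulated data. Intervals are at 95% and cover counting error only.

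All 7 members were named with every peak, and of the other lists the 2 genes with the most peaks and those with none, plus neighbours and genes given peaks inside a member; some genes that this rule picks are not reported here. Markers outside this rule were chosen after their values were seen. The members and lists were chosen with earlier results of these data known. The RefSeq starts and the leaving out of genes from distances and upstream shares as alternatives, the range of 10 to 150 kb upstream and the count of repeated words were added after the data had been seen.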

Additional observations from a re-analysis of the deposited data

How the results depend on the processing

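Of the alternative settings for the results answering a comparison, 32 left the value within its limits and 7 moved it. The 58 member peaks fell to 19 when peaks beyond 10 kb of the TSS were left out, with Tet2 at 2 and Dnmt3a at 4. Tet2 kept 14 peaks within 100 kb and 8 within 50 kb. The 6 genes with a promoter peak became 3 with a limit of 100 bp. The 81 peaks in the windows of 50 kb became 37 at 25 kb and 144 at 100 kb, since the windows change in size. The share within 1 kb of a TSS, 15.5%, stayed within its interval but lay above the 16.2% of all peaks without Tet2 (20.0%) and without Tet1 (18.8%). In settings added after the data had been seen, the median distance of 26.4 kb fell to 11.2 kb without Tet2 and to 5.95 kb without Tet2 and Dnmt3a, both below the 18.2 kb of all peaks, and the upstream share of 60.3% to 33.3% without both, below 42.3%. For single genes and motifs, 39 values were the same and 22 moved. No paired analysis was possible because the list pools all libraries and holds no replicate values. Peaks have no height here and a fixed width, so neither strength nor absence of accessibility in any cell type can be read from them.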

Other observations

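Several member peaks also overlapped long non-coding RNA genes of the RefSeq table that the list does not name for them. All 5 Tet1 peaks that the list calls upstream overlap Gm51805, which spans chr10:62865670-62910643 and so covers the RefSeq start of Tet1. At Tet2, the peaks 101 and 116 kb upstream overlap Gm40153 and the peak at 332 kb overlaps Gm26691. The Dnmt3a peak 35.8 kb upstream overlaps the pseudogene Gm18028 inside Dtnb.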
